A study of Homo sapiens and Mus musculus with 4 samples.

Results

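MYC encodes a basic helix-loop-helix leucine zipper transcription factor that drives genes of growth, ribosome production and cell division. It lies in a large region with few other protein-coding genes, and much of the DNA that is known to control it sits far from the gene, on both sides and within the non-coding neighbour PVT1. TEAD factors bind DNA at enhancers and promoters and recruit YAP1 or its relative TAZ, the co-activators that the Hippo kinases hold out of the nucleus. In muscle, YAP1 is active in proliferating satellite cells, the stem cells that regenerate the fibre.

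The data were TEAD-bound regions (peaks) found by chromatin immunoprecipitation and sequencing (ChIP-seq) in 2 cell types. RD is a human cell line from an embryonal rhabdomyosarcoma, a childhood tumour with features of immature muscle. YAP-ERMS are mouse cells derived from YAP-driven tumours under Myf5-Cre or Pax7-CreER. Both Cre drivers act in the myogenic lineage, and the labels do not say which of them, or how many tumours, the sequenced mouse cells came from. Each cell type had 1 TEAD library and 1 control library, IgG for RD and input DNA for YAP-ERMS, and no treatment or time course was labelled. The TEAD family member that the antibody recognises is not given in the sources used here. There were no replicates, the sequencing depth is unknown from the files, and no difference reported here has a replicate check.

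Peaks were taken whose midpoint lay within 1 Mb of the MYC transcription start, set to the nearest kb at 128.748 Mb on human chromosome 8 (hg19) and at 61.816 Mb on mouse chromosome 15 (mm9). This choice uses position alone. It gave 46 of the 22681 RD peaks and 103 of the 47033 YAP-ERMS peaks, 149 of 69714 in all. MYC is transcribed toward higher coordinates in both builds, so peaks at higher coordinates are called downstream. Each peak carries the authors' own score, read as 10 times the negative log10 of its p-value. The score depends on depth and on the control, so values of the 2 lists stand side by side and are not compared as strengths of binding. Intervals are 95% intervals, cover counting error only and treat neighbouring peaks as independent.

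On human chromosome 8 the gene table of assembly GRCh38.p14, used for order only, places the long non-coding RNA gene CASC11 directly before MYC and POU5F1B, CCAT2, CASC8 and CCAT1 beyond it. PVT1 follows directly after MYC, and MIR1204, MIR1205, MIR1206, MIR1207 and MIR1208 come after its start in that order. An annotation of hg19 or mm9 was not used here, so no peak is assigned to any of these genes, and distances are given from the MYC start.

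The 2 RD peaks at the MYC start itself scored low for their list, while the YAP-ERMS peak over the start scored above most of its list. Neither list had its highest scores of the region there. The 4 highest listed scores lay 74.2 to 441 kb away in RD and 303 to 743 kb away in YAP-ERMS. In RD, 3 peaks lay within 10 kb of the start. The first spanned 128747713 to 128747894, a width of 182 bp, with a score of 119. The second spanned 128748423 to 128748588, a width of 166 bp, with a score of 85.6. These were the 2 narrowest of the 46 RD peaks, and 73.1% and 94.0% of all RD peaks scored higher than the first and the second. Their midpoints lay 0.197 kb before and 0.505 kb after the start. These distances are smaller than the 1 kb to which the start is given, so which side of it they lie on is not settled. The third peak, at 128755622 to 128756034, had a score of 260 and lay 7.83 kb downstream.

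YAP-ERMS also had 3 peaks within 10 kb of the start, and one of them covered it. It spanned 61814633 to 61819424 and had a score of 547, the 24th highest of the 103. Of all YAP-ERMS peaks, 18.3% scored higher. At 4792 bp it was the widest peak of the mouse region and the 27th widest of all 47033 peaks, 3.70 times as wide as the median peak of similar score. The other 2 lay 7.35 and 9.82 kb downstream with scores of 110 and 161. The start of the gene was therefore inside 1 broad listed peak in the mouse cells. In the human cells it lay in, between or next to 2 narrow peaks of low score, 0.725 and 0.82 times as wide as RD peaks of similar score. Median widths were 335 bp over the RD list and 1083 bp over the YAP-ERMS list, so raw widths are not compared between them.

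**Figure D1:**
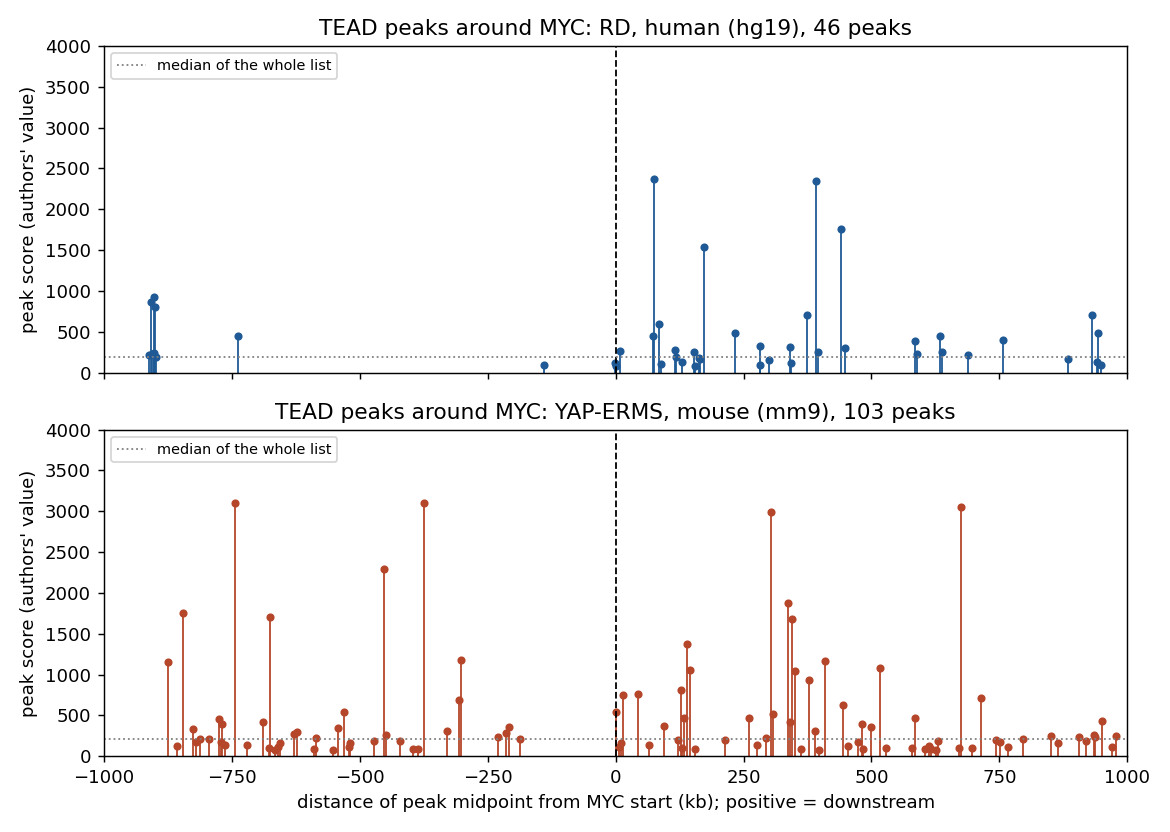
Score of every TEAD peak (y axis, the authors' value) against the distance of its midpoint from the MYC start in kb (x axis, positive downstream), 46 peaks in RD and 103 in YAP-ERMS; each stem is 1 peak, the dashed line is the start and the dotted line the median score of the whole list (189 and 205). The RD peaks over 1000 all stand to the right of the start, at 74.2 to 441 kb, while YAP-ERMS peaks over 1000 stand on both sides; the 2 at exactly 3100, a value of uncertain scale, lie 743 and 375 kb to the left.

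The highest RD peak of the region lay 74.2 kb downstream of the start, at 128821520 to 128822900. It spanned 1381 bp and scored 2371, the 70th highest of the 22681 RD peaks. The next lay 392 kb downstream at 129139545 to 129140535, with a score of 2350. A peak 441 kb downstream, at 129188628 to 129189568, had a score of 1762. A peak 172 kb downstream, at 128919610 to 128920678, had a score of 1533. These 4 peaks were the only ones of the region over a score of 1000, and all lay downstream. They made up 8.70% of the 46 peaks (Wilson interval 3.43% to 20.3%), against 5.47% of all RD peaks, so their share was not above the background beyond counting error. The fifth highest, with a score of 921, lay 902 kb upstream at 127845903 to 127846790.

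In YAP-ERMS, 2 peaks of the region had a score of exactly 3100, a value that 97 peaks of the list share. It was not the upper limit of the scores, as 0.0468% of the list scored higher. Whether 3100 is a computed p-value like the other scores, or a fixed value set for peaks whose p-value could not be computed, is not known from the files, so the place of these 2 among the highest peaks is uncertain. They lay upstream of the start, one 743 kb away at 61071374 to 61074281 and one 375 kb away at 61439534 to 61443090. The highest of the other peaks lay 674 kb downstream at 62489509 to 62491335, with a score of 3046. The next lay 303 kb downstream at 62117792 to 62120357, with a score of 2992. After it came one 452 kb upstream at 61363126 to 61365658, with a score of 2289. Scores over 1000 were held by 16 of the 103 peaks, 7 upstream and 9 downstream. That is 15.5% (Wilson interval 9.79% to 23.8%) against 7.38% of all YAP-ERMS peaks, and the interval lies above the background share. It is too narrow where high peaks are neighbours, as are 3 of the 16 at 335 to 362 kb downstream. The 16 also include the 2 peaks at 3100. The share over the rest of chromosome 15 was not computed. No peak within 100 kb of the start was among these 16, and the nearest of them lay 140 kb downstream with a score of 1376.

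Over all members the scores were closer to those of the lists. The RD scores ran from 85.0 to 2371 with a median of 252 (order-statistic interval 192 to 397), against a list median of 189, and 31 of 46 peaks scored above that list median. The YAP-ERMS scores ran from 81.0 to 3100 with a median of 231 (193 to 304), against a list median of 205, and 58 of 103 peaks scored above it. The RD interval lay above the list median and the YAP-ERMS interval included it. The YAP-ERMS scores differed by distance: the median was 354 for the 49 peaks within 500 kb and 196 for the 54 peaks farther away. In RD these medians were 255 and 250. No interval was computed for these 4 medians. A score over 320 was reached by 18 RD members, 39.1% against 29.9% of the list, and by 40 YAP-ERMS members, 38.8% against 33.3%. The Wilson intervals of these shares, 26.4% to 53.5% and 30.0% to 48.5%, both included the background.

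The region was rich in peaks in both lists. The 46 RD peaks came to 23.0 per Mb (exact Poisson interval 16.8 to 30.7), and 2 Mb tiles laid over the genome and holding at least 1 peak had a median of 13 peaks. Of these 1400 tiles, 48 held 46 or more, which places the MYC window at the 96.8th percentile when tiles with the same number as the window are counted as 0.5 each. The 103 YAP-ERMS peaks came to 51.5 per Mb (42.0 to 62.5), against a median of 36 per tile. Of 1265 tiles, 7 held 103 or more, which places the window at the 99.5th percentile in the same way. The window is centred on the gene and the tiles are not, and the tiles that overlap the window are among those counted, so the percentiles describe the lists and test nothing.

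Other parts of the same chromosomes were as dense. Against tiles of human chromosome 8 alone the RD window stood at the 94.3rd percentile, with 4 of 70 tiles at 46 or more. The densest of these tiles, with 59 peaks, began 1.25 Mb downstream of the MYC start. Among them was also the tile from 128 to 130 Mb, with 55 peaks, most of which overlaps the window itself. Elsewhere on the chromosome, the tiles at 30 to 32 Mb and at 118 to 120 Mb held 52 each. Mouse chromosome 15 had a median of 58 peaks per tile, and the YAP-ERMS window stood at its 94.0th percentile, with 3 of 50 tiles at 103 or more. The densest of these, with 129 peaks, ended 1.82 Mb upstream of the start.

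**Figure D2:**
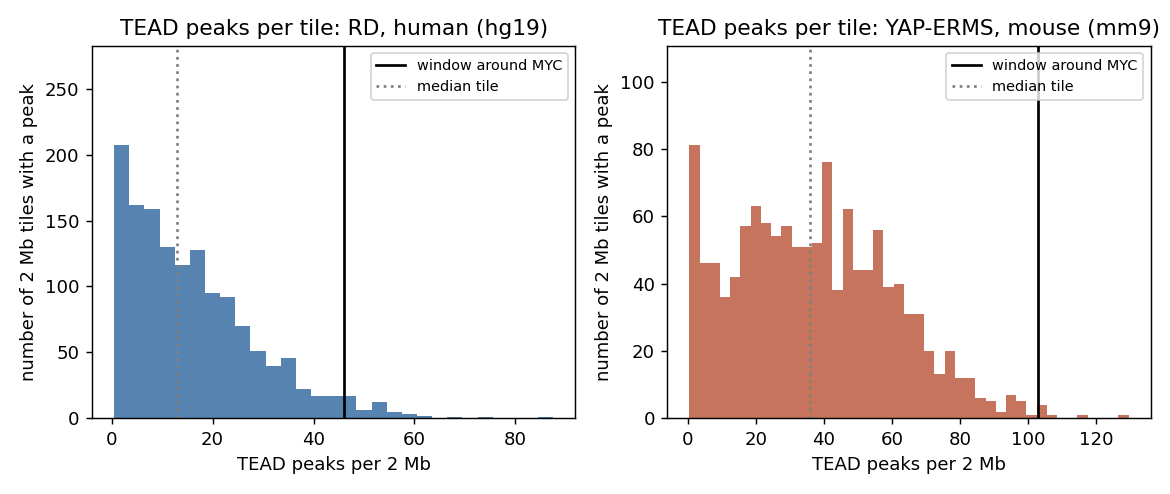
Number of 2 Mb tiles (y axis) by the number of TEAD peaks they hold (x axis), for 1400 RD tiles and 1265 YAP-ERMS tiles with at least 1 peak; the solid line is the window around MYC and the dotted line the median tile. The window's 46 RD peaks and 103 YAP-ERMS peaks stand in the right tail of each distribution, above the medians of 13 and 36.

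The RD peaks lay mostly on the downstream side, the side of PVT1. There were 36 downstream (exact Poisson interval 25.2 to 49.8) and 10 upstream (4.80 to 18.4), a downstream share of 78.3% (Wilson interval 64.4% to 87.7%). Within 500 kb of the start the split was 25 downstream to 2 upstream. All these counts place the 2 narrow peaks at the start by midpoint, 1 on each side, although their side is not settled. Among 2511 tiles of 1 Mb that held a peak, with a median of 7, only 29 held as many as the downstream side, and 947 held as many as the upstream side. Median scores were 257 downstream (interval 185 to 397) and 232 upstream (119 to 870), and these intervals overlap.

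In YAP-ERMS the downstream side held 61 peaks (46.7 to 78.4) and the upstream side 42 (30.3 to 56.8). The downstream share of 59.2% had a Wilson interval of 49.6% to 68.2%, which includes an even split. Within 500 kb it was 35 peaks downstream to 14 upstream. Both sides were dense for the list: of 2367 tiles of 1 Mb with a median of 18 peaks, 13 held as many as the downstream side and 167 as many as the upstream side. Median scores were 232 downstream (179 to 391) and 226 upstream (175 to 333).

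**Figure D3:**
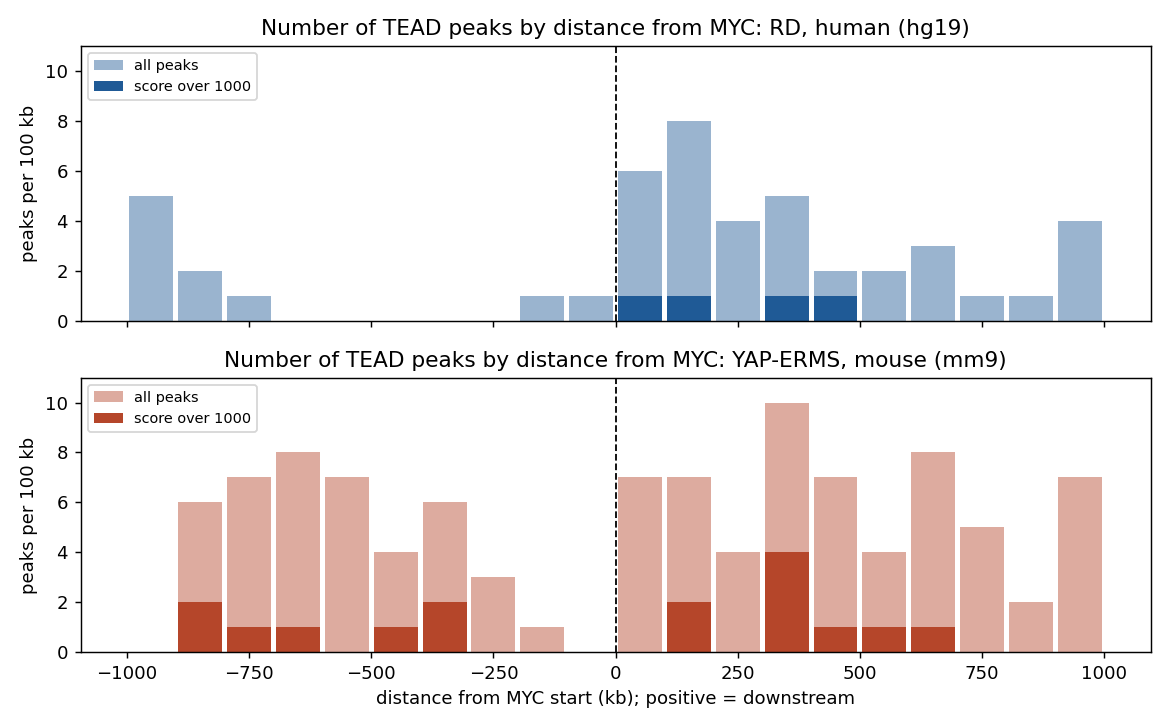
Number of TEAD peaks (y axis) in 100 kb bins by distance from the MYC start in kb (x axis, positive downstream), with peaks scoring over 1000 in the darker colour and the start as a dashed line. All 10 downstream bins hold a peak in both lists, while the upstream side has 5 bins with a peak in RD and 8 in YAP-ERMS. The RD upstream bin nearest the start holds only a peak at the start whose side is not settled.

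Directly upstream of the start both lists had a stretch without peaks. In RD it ran 139 kb, from the peak that ends at 128608480 to the first peak at the start, and 20.3% of the gaps between neighbouring peaks in the RD list were longer. Beyond that single peak, which had a score of 95.9, came another stretch of 597 kb, the longest of the region, up to the peak that ends at 128011436. Of the RD gaps, 4.31% were longer than this one. In YAP-ERMS the longest stretch of the region ran 185 kb, from 61630118 to the broad peak at the start, and 4.98% of the gaps of that list were longer. Between neighbours in the region the median gap was 8.57 kb for RD, against 32.7 kb over that list. For YAP-ERMS it was 10.7 kb, against 16.7 kb.

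The RD peaks occurred in close groups. Close neighbours are more frequent wherever peaks are dense, as they are here. The shares given here and below for both lists stand beside the whole lists only. Grouping beyond that of similarly dense regions was not tested. Another peak lay within 10 kb of 38 of the 46 (82.6%, Wilson interval 69.3% to 90.9%), against 46.9% of the list. Runs of peaks in which each gap was 12500 bp or less, called clusters here, held 3 or more peaks at 6 places in the region. These took in 26 peaks, 56.5% (42.2% to 69.8%) against 27.3% of the list. Peaks of the same cluster share this call by definition, so this interval and the matching one for YAP-ERMS are too narrow.

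The largest RD cluster lay at the far upstream end, 911 to 898 kb from the start at 127837129 to 127850283. It held 7 peaks over 13.2 kb with scores from 192 to 921. A cluster of 5 peaks lay 153 to 173 kb downstream at 128901311 to 128920678, with scores from 85.0 to 1533. A cluster of 4 peaks, 72.2 to 88.5 kb downstream, held the highest peak of the region. The 3 peaks nearest the start made up a cluster of their own. The remaining 2 clusters lay 116 to 129 kb and 930 to 948 kb downstream and had a highest score of 706.

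YAP-ERMS had 13 such clusters around MYC, which took in 55 of the 103 peaks, 53.4% (43.8% to 62.7%) against 41.0% of the list. Another peak lay within 10 kb of 72 of them (69.9%, 60.5% to 77.9%), against 59.1%. The largest cluster held 7 peaks over 35.8 kb, 120 to 156 kb downstream at 61935711 to 61971516, with scores from 91.9 to 1376. A cluster of 5 peaks, 335 to 362 kb downstream at 62151202 to 62177744, had the highest median score, 1039, and 3 of its peaks scored over 1000. A cluster of 6 peaks lay 690 to 656 kb upstream at 61126124 to 61159852, with scores from 82.5 to 1700. Of the other 2 clusters of 5 peaks, one lay 553 to 518 kb upstream at 61263173 to 61297887, with scores up to 537. The other lay 604 to 630 kb downstream at 62419913 to 62445848, where no score exceeded 188.

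Clusters of 5 or more peaks held 12 RD members (26.1% against 9.38% of the list) and 28 YAP-ERMS members (27.2% against 17.6%). They did not hold most of the high scores, either here or over the whole lists. In RD 1 of the 4 peaks over 1000 lay in such a cluster, against 191 of 1241 over the list. That is 2.17% of the members against 0.842% of the list. In YAP-ERMS 6 of the 16 did, against 901 of 3471 over the list. That is 5.83% of the members against 1.92% of the list. Of the 2 YAP-ERMS peaks at 3100, the one 743 kb upstream had no other peak within 12500 bp.

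Peaks around MYC were wide for their score. The median RD member was 439.5 bp wide against 335 bp over the list. Compared with peaks of similar score, the median member was 0.25 log2 units wider (order-statistic interval 0.13 to 0.32), which is 19.3%, and 36 of 46 were wider than the median of their score class. The rest of chromosome 8 stood at 0.06. In YAP-ERMS the median member was 1295 bp wide against 1083 bp over the list. At matched score it was 0.18 log2 units wider (0.11 to 0.25), and 74 of 103 were above their class. The rest of chromosome 15 stood at 0.15, inside that interval.

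The widest RD member for its score among those over 1000 was also the highest, the peak 74.2 kb downstream, at 1.78 times the width of peaks of similar score. In YAP-ERMS 6 of the 10 widest members lay downstream of the start and 4 upstream, close to the downstream share of 59.2% over all members. After the 4792 bp peak at the start came one of 4672 bp, 345 kb downstream at 62158764 to 62163435, with a score of 1677. It was the 32nd widest of the list. Peaks of 3851 and 3773 bp followed, 145 and 337 kb downstream, and then the 3557 bp peak 375 kb upstream. The peak of 3174 bp that opens the largest mouse cluster, 121 kb downstream, scored only 195 and was 1.59 log2 units wider than peaks of similar score.

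**Figure D4:**
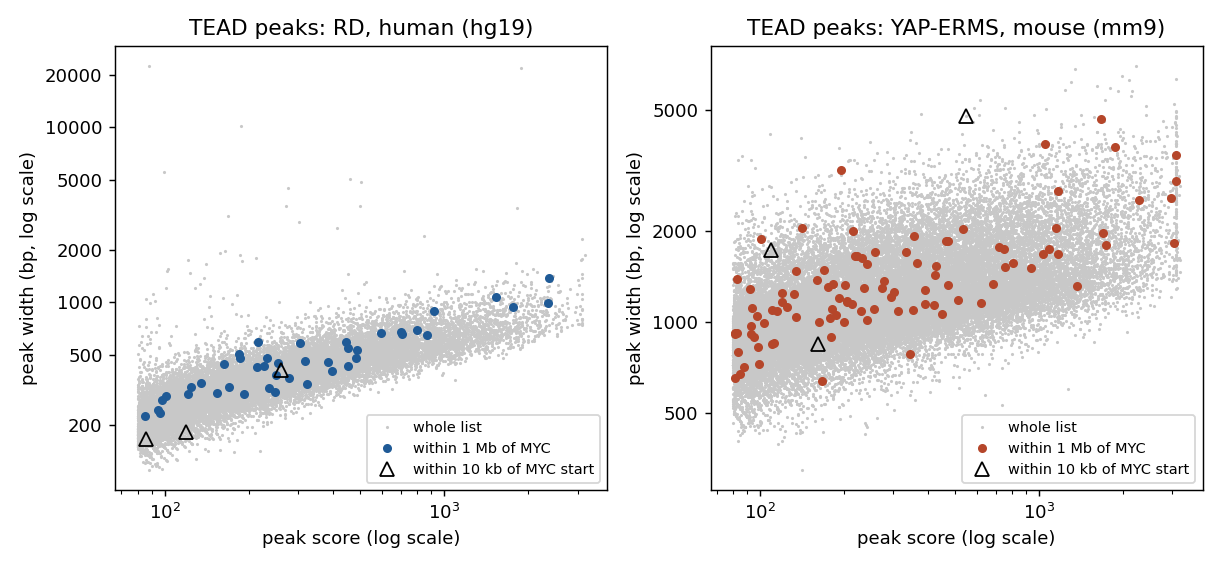
Width of each TEAD peak in bp (y axis, log scale) against its score (x axis, log scale) for the whole list in grey, peaks within 1 Mb of the MYC start as filled circles and those within 10 kb as open triangles. In YAP-ERMS the peak over the start (4792 bp, score 547) stands at the upper edge of its score class, while in RD 2 of the 3 peaks near the start are at the lower left.

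The density did not end at the limit of 1 Mb. In RD the stretch from 1 to 2 Mb downstream held 46 peaks, 9 of them over 1000 and the highest at 2459, against 36 and 4 in the first Mb downstream. The stretch from 2 to 1 Mb upstream held 5, of which 1 scored over 1000. Over the whole RD list 5.47% of peaks scored over 1000, and differences between these stretches were not tested. Median width at matched score was 0.08, 0.16, 0.26 and 0.29 log2 units from the far upstream to the far downstream stretch. The first 2 of these rest on only 5 and 10 peaks, and no interval was computed, so no trend is shown. In YAP-ERMS the 4 stretches, from far upstream to far downstream, held 23, 42, 61 and 41 peaks. Of these, 1, 7, 9 and 4 scored over 1000, against 7.38% of that list. The first Mb downstream held the most peaks. Its width at matched score, 0.21 log2 units, was also the highest of the 4.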

How the data were processed

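Cells were fixed with formaldehyde, chromatin was sonicated, and libraries were sequenced on an Illumina HiSeq2000, per the labels' protocols. Reads were aligned with Bowtie2 to hg19 or mm9, per the submitters' processing notes. The authors deposited 1 peak list per cell type with a score per peak. The peak names are those MACS writes, and the lowest score in both is 80. No version of these tools and no treatment of duplicate reads is stated in the labels.

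Positions are printed 1-based. Width at matched score is log2 width minus the median in 50 score bins of the list. Tiles are those of the whole list that hold a peak, unplaced sequences included. Named peaks were all within 10 kb of the start, the nearest 3 on each side, the 5 highest, and cluster ends; wide peaks, other clusters, the low upstream peak and the nearest peak over 1000 in YAP-ERMS were picked with their values in view. The functions were tested on simulated lists. Values were computed with scipy 1.17.1 and pandas 2.3.3 under Python 3.11.15 and drawn with matplotlib 3.10.9. The region and the rules were chosen with earlier results of these data known. Alternatives covered window size, score limits, joining, cluster gaps and the start position.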

Additional observations from a re-analysis of the deposited data

How the results depend on the processing

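Of 50 recomputed values for 14 results, 34 stayed within the set margins and 16 moved beyond them. The margins were 1.5-fold for counts, the 95% interval for shares, medians and percentiles, and 1 half-width of the peak for distances. A reversal of direction could be recorded only for the RD downstream share and for width at matched score in both lists. None of these reversed. Moving the start by 1 kb, or counting any overlap, left 46 and 103 peaks. With 0.5 Mb to each side there were 27 RD and 49 YAP-ERMS peaks, and with 2 Mb 97 and 167, as the window sizes require. At 0.5 Mb the downstream share was 92.6% in RD and 71.4% in YAP-ERMS, and the YAP-ERMS median score was 354. Keeping only peaks above the median score of the list left 58 YAP-ERMS peaks, placed the RD window at the 99.2nd percentile of tiles, and made the nearest RD peak the one at 7.83 kb. Against tiles of the same chromosome the percentiles were 94.3 in RD and 94.0 in YAP-ERMS. Scores of 160 or more gave a YAP-ERMS median of 357, by construction. From its nearer edge the nearest RD peak lay 0.106 kb from the start. With gaps of at most 5 kb, clusters of 3 or more peaks numbered 1 in RD and 4 in YAP-ERMS, against 6 and 13. No paired analysis was possible because each group is 1 library. Without replicates or read depth, a region without a listed peak cannot be called unbound.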
